A study of Rattus norvegicus with 8 samples.

Results

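The 7 genes described here are those that define or run heat production in brown and beige fat: Ucp1, Cidea, Elovl3, Ppargc1a, Dio2, Prdm16 and Adrb3. They were taken by name from the 37209 gene rows of the deposited count table, and all 7 were found. The table holds total RNA libraries of 8 rat veins: 4 vein grafts and 4 control jugular veins, all collected from rats of the outbred Sprague Dawley (SD) strain 1 week after the operation. For the graft, the left common carotid artery was divided and its ends were turned back over short cuffs cut from a cannula. In cuff models of this kind the grafted vein bridges the artery and carries arterial blood. The control was the same animal's jugular vein of the opposite side. The study design speaks of 4 pairs, but the labels do not say which control belongs to which graft. They give neither age nor sex, and they do not say how much of the fat around either vein was trimmed away.

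Brown adipocytes burn fuel to make heat. Noradrenaline from sympathetic nerves acts on beta-adrenergic receptors, raises cyclic AMP, releases fatty acids and switches on a transcriptional programme in which the coactivator encoded by Ppargc1a and the regulator encoded by Prdm16 take part. Deiodinase 2, the product of Dio2, makes active thyroid hormone inside the cell, and uncoupling protein 1, the product of Ucp1, lets protons leak back into the mitochondrial matrix so that respiration is released as heat. Ucp1 is the defining marker of these cells, whereas the other members are also made elsewhere: Cidea in fat in general, Adrb3 in white as well as brown adipocytes of rodents, and Ppargc1a in muscle.

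The stretches upstream of 3 members are shown because these genes frame the results: Ucp1 as the defining marker, Ppargc1a as the coactivator that cyclic AMP signalling is known to induce, and Cidea as a tested member that was lower in every graft than in any control. Each is the 250 bases before the gene start in RefSeq, build GRCr8, read 5′ to 3′ on the gene's strand, and 6 of the 7 members had an entry. Capitals mark matches on either strand to TGACG (the core of the cyclic AMP response element), its full palindrome TGACGTCA, the nuclear receptor motif AGGTCA or the TATA motif TATAAA. The Ucp1 stretch is chr19:41721422-41721671 on the minus strand, that of Ppargc1a chr14:63634058-63634307 on the plus strand and that of Cidea chr18:63164567-63164816 on the plus strand.
Ucp1: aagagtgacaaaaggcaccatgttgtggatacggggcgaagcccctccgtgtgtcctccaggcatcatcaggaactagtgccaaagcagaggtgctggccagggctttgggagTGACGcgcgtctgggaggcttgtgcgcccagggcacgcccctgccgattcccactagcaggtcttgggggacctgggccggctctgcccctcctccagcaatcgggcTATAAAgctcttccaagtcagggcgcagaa
Ppargc1a: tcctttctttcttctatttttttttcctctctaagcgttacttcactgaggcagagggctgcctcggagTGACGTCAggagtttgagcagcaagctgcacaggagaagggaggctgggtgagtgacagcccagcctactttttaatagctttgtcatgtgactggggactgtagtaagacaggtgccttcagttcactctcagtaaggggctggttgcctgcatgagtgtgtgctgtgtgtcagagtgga
Cidea: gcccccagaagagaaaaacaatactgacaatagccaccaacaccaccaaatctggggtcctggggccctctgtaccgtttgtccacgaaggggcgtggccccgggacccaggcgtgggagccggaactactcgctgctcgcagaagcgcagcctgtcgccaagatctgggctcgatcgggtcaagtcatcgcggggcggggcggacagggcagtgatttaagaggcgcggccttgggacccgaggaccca
The Ucp1 stretch held 1 TGACG, from base 137 to base 133 before the start, and 1 TATAAA, from base 30 to base 25. The Ppargc1a stretch held the full TGACGTCA, from base 181 to base 174, which contains TGACG on each strand. The Cidea stretch held none of the 4 motifs, and none of the 6 stretches held AGGTCA. Over all 33469 rat promoters of this length, TGACGTCA occurred in 1.59%, TGACG in 18.2%, AGGTCA in 14.1% and TATAAA in 12.9%. These matches describe letters only.

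Ucp1 was read in 2 of the 4 control veins and in none of the grafts, Cidea and Adrb3 were lower in every graft than in any control, and Dio2 was lower by a smaller margin. Ppargc1a was lower on average with overlapping groups, Prdm16 did not pass the test, and Elovl3 had no counts in any library. Counts were tested across all genes by edgeR's quasi-likelihood test with Benjamini-Hochberg adjustment, called "edgeR adjusted p" from here on, with 0.05 as the threshold. Of the 7 members, 5 passed the filter on low counts and 4 of these fell, while 21.3% of all 15464 genes tested fell and 42.3% changed in either direction. The grafts and controls did not overlap for 3 of these 5, against 19.8% of all genes tested that were lower in every graft. Adrb3 is among these, but it had 3 and 2 counts in grafts 2 and 3 and passed the filter through the controls. Only a fall could thus be called for Adrb3, and it adds no separate weight to these counts of members. Levels are counts of a gene per 1000000 counts of its library (CPM), with library sizes scaled by TMM factors, and each log2 fold change is graft minus control, with its SE after the ± sign. In whole-tissue RNA, fewer cells of a type and less RNA per cell cannot be told apart.

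Total counts ran from 10533451 to 16061189 in the grafts and from 5981520 to 14267490 in the controls. The 3 counts that a count of 0 allows were worth 0.182 to 0.240 CPM in a graft and 0.225 to 0.560 CPM in a control, counting error only. The veins were checked against marker lists of other cell types. Skeletal muscle markers differed widely between libraries: 12 genes summed to 1166, 64.9, 564 and 1335 CPM in grafts 1 to 4 and to 85.2, 69.6, 1946 and 315 CPM in controls 1 to 4. Of these 12, 1 rose by edgeR, the fast myosin gene Myh1 (adjusted p = 0.0307), a call lost without graft 1 or 4 or control 1, 2 or 4, and the most abundant, Neb, did not pass (0.441). All 10 contractile smooth muscle genes fell, Myh11 and Synpo2 among them, with summed levels of 2048 to 4055 CPM in the grafts and 14830 to 24749 CPM in the controls. All 10 macrophage genes rose, Trem2 and Gpnmb among them, with sums of 1751 to 3055 CPM in the grafts and 277 to 400 CPM in the controls. Of 10 endothelial genes, 5 fell, Emcn and Vwf among them. Over all genes tested, 21.3% fell and 21.0% rose. The labels' extraction protocol names prefrontal cortex as the tissue. In these libraries 8 neuronal and glial genes summed to 2.25 to 8.07 CPM in the grafts and 5.68 to 8.96 CPM in the controls, led by the glial filament gene Gfap, and Neurod6, a cortical neuron transcription factor, had no counts anywhere. Of these 8, 3 were tested and 0 passed by edgeR or DESeq2, with 0 at an unadjusted edgeR p under 0.05.

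Ucp1 had 0 counts in each of grafts 1 to 4, and 0, 0, 400 and 424 counts in controls 1 to 4. On the CPM scale that was 0 in controls 1 and 2, 33.5 in control 3 and 79.1 in control 4. The gene was thus present in part of the control group, and the other controls could not be told from the grafts. Against 3 counts over the whole graft group, the Ucp1 level read was 645-fold higher in control 3 and 1526-fold higher in control 4. Against 3 counts in control 1 it was 148-fold higher in control 3 and 352-fold higher in control 4. Against 3 counts in control 2 it was 112-fold higher in control 3 and 264-fold higher in control 4. These ratios leave out the counting error of controls 3 and 4 and the differences between animals. Since only 2 libraries held counts, Ucp1 did not pass the filter on low counts. An exact permutation test of the mean CPM over the 8 libraries, two-sided, gave p = 0.429 (n = 4 each). The design allows 0.0286, but a gene with counts in only 2 libraries cannot reach below 0.429. That test therefore cannot decide whether Ucp1 differed. With the filter removed, the edgeR adjusted p was 0.0196, with 12.7% of 24983 genes called lower. That fit gives no usable fold change, because all 4 grafts are at 0, and controls 1 and 2 do not show the difference.

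**Figure D1:**
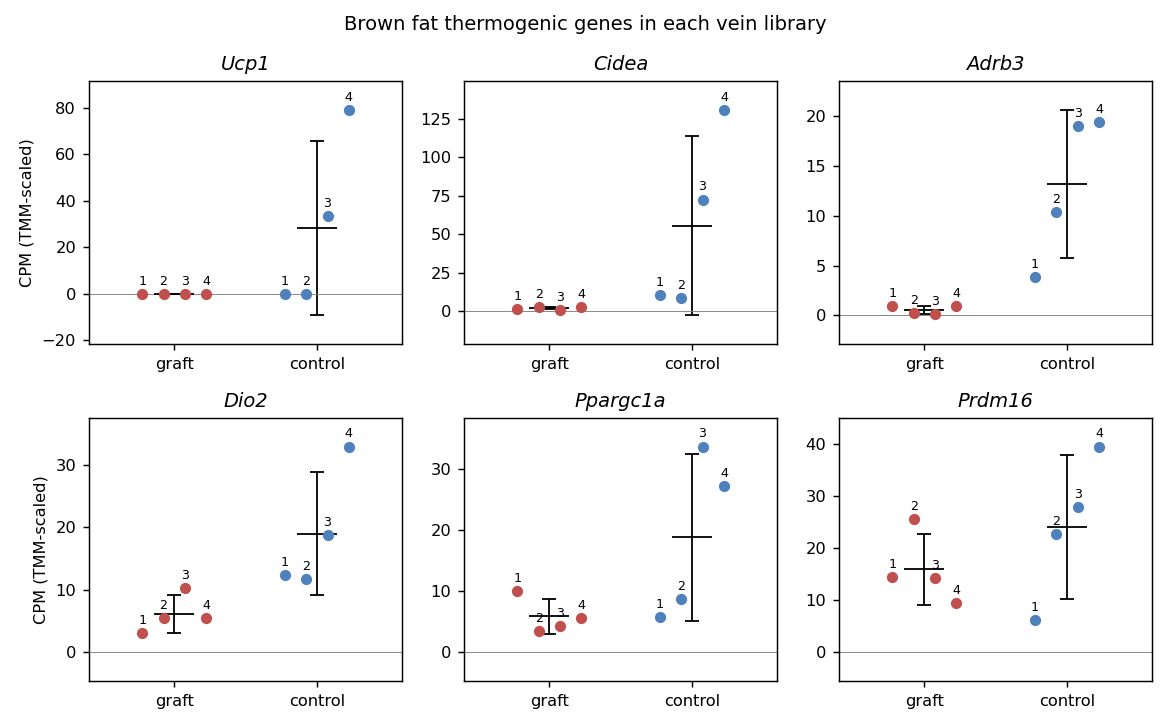
CPM of 6 members in each library, graft veins on the left and control veins on the right of each panel, with the library number above its point and the mean ± SD as a black bar (n = 4 each). Ucp1 stands above 0 in controls 3 and 4 alone, the same libraries lead Cidea and Ppargc1a, and no graft reaches any control for Cidea, Adrb3 or Dio2.

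Cidea encodes a lipid droplet protein of brown and, at lower levels, white adipocytes. It stood at 1.58, 2.63, 0.880 and 2.31 CPM in grafts 1 to 4, and at 10.3, 8.46, 72.6 and 131 CPM in controls 1 to 4. Every graft lay below every control, and the controls themselves split, with 3 and 4 far above 1 and 2. Cidea averaged 1.85 ± 0.782 CPM in grafts and 55.5 ± 58.3 CPM in controls (SD, n = 4 each). It fell by 4.88 ± 0.93 log2 units (edgeR adjusted p = 0.00257). Set against each control in turn, the graft mean was lower by log2 differences of -2.47, -2.20, -5.27 and -6.12 for controls 1 to 4. With controls 3 and 4 left out, the log2 fold change was -2.33 ± 0.40 (edgeR adjusted p = 0.00483), still past the threshold. These 2 controls, the ones with Ucp1, were also the highest for each of the 5 tested members, so a smaller fall without them follows from the choice of libraries.

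Adrb3 encodes the beta-3 adrenergic receptor, the main noradrenaline receptor of rodent adipocytes. It had 15, 3, 2 and 14 counts in grafts 1 to 4, and 52, 104, 227 and 104 counts in controls 1 to 4. As CPM these were 0.910, 0.225, 0.160 and 0.899 in the grafts and 3.90, 10.4, 19.0 and 19.4 in the controls. The groups did not overlap, with control 1 the lowest control. Adrb3 fell by 4.50 ± 0.66 log2 units (edgeR adjusted p = 0.000609). Without controls 3 and 4 the log2 fold change was -3.62 ± 0.67 (edgeR adjusted p = 0.00659).

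Dio2, the activating deiodinase, stood at 3.03, 5.48, 10.3 and 5.46 CPM in grafts 1 to 4, and at 12.3, 11.7, 18.8 and 32.9 CPM in controls 1 to 4. The highest graft came close to the lowest control without reaching it. Dio2 averaged 6.07 ± 3.05 CPM in grafts and 18.9 ± 9.85 CPM in controls (SD, n = 4 each), and it fell by 1.63 ± 0.43 log2 units (edgeR adjusted p = 0.0132). With controls 3 and 4 left out the log2 fold change was -0.99 ± 0.41 and not past the threshold (edgeR adjusted p = 0.112). For Cidea, Adrb3 and Dio2 the exact permutation test of mean CPM, two-sided, gave p = 0.0286 each (n = 4 each), the smallest that this design allows.

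Ppargc1a encodes the coactivator PGC-1alpha, which drives mitochondrial biogenesis in brown fat and muscle. Its levels were 10.0, 3.46, 4.32 and 5.52 CPM in grafts 1 to 4, and 5.69, 8.66, 33.6 and 27.1 CPM in controls 1 to 4. Graft 1 stood above controls 1 and 2, and only controls 3 and 4 lay clear of the grafts. Ppargc1a fell by 1.67 ± 0.57 log2 units (edgeR adjusted p = 0.0400). The call was lost without graft 2 (edgeR adjusted p = 0.0948), graft 3 (0.0983), graft 4 (0.0861), control 3 (0.125) or control 4 (0.0983), and the log2 fold change was -0.29 with both controls left out (edgeR adjusted p = 0.667). Control 3, the highest for Ppargc1a, also had the highest skeletal muscle sum (1946 CPM), but control 4 had 27.1 CPM of Ppargc1a with 315 CPM of muscle genes, and graft 4 had 5.52 CPM with 1335 CPM. The part of skeletal muscle in the Ppargc1a values was not tested.

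**Figure D2:**
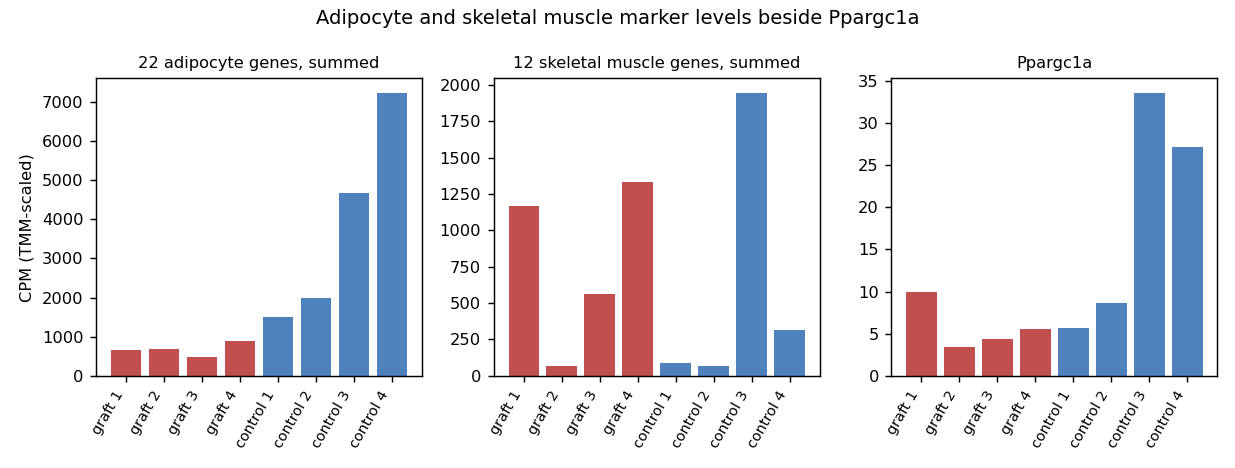
Summed CPM of 22 adipocyte genes, summed CPM of 12 skeletal muscle genes and CPM of Ppargc1a, each as 1 bar per library, grafts in red and controls in blue, with axes from 0. Controls 3 and 4 lead the adipocyte sum with 4663 and 7233 CPM, whereas the muscle sum is highest in control 3, graft 4 and graft 1.

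Prdm16 encodes a transcriptional regulator that favours brown over muscle and white fat identity and is also made by endothelial cells. It stood at 14.5, 25.6, 14.3 and 9.44 CPM in grafts 1 to 4, and at 6.14, 22.8, 27.9 and 39.6 CPM in controls 1 to 4. The lowest value of all was in control 1 and the ranges overlapped broadly. The endothelial genes summed to 1572 to 1911 CPM in the grafts and 3287 to 5058 CPM in the controls, highest in control 1. Vwf held much of that sum, at 3583, 2331, 1321 and 1592 CPM in controls 1 to 4. Vwf, Tie1, Egfl7 and Esam were highest among controls in control 1, whereas Pecam1, Cdh5, Tek, Kdr, Emcn and Erg were lowest there. The part of endothelial cells in the Prdm16 values was not tested. In the GRCr8 RefSeq table Prdm16 and Ppargc1a overlap other, little characterised genes or pseudogenes, so their counts may hold or lack such reads. Its log2 fold change was -0.58 ± 0.49 (edgeR adjusted p = 0.365), with grafts averaging 16.0 ± 6.85 CPM and controls 24.1 ± 13.9 CPM (SD, n = 4 each). Prdm16 passed without control 1 (log2 fold change -0.91, edgeR adjusted p = 0.0464), and its sign turned with controls 3 and 4 left out (0.15, edgeR adjusted p = 0.861).

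Elovl3, a fatty acid elongase that cold induces strongly in brown fat, had 0 counts in all 8 libraries, controls 3 and 4 included. Its close relative Elovl6, an elongase of the lipogenic programme, had 1 count over the grafts and 12 over the controls. Genes that were low and are named after their values were seen were Gnas, a stimulatory G protein subunit that most cells make in quantity, at 6.69 ± 4.18 CPM in the grafts and 5.62 ± 1.51 CPM in the controls (SD, n = 4 each), and Pnpla2, the main triglyceride lipase of adipocytes, at 0.320 to 1.35 CPM in the grafts and 0.896 to 9.71 CPM in the controls. In the GRCr8 RefSeq table the Elovl3 gene overlaps Pitx3, which by itself had few counts. Whether the annotation and counter used for these libraries could assign reads to Elovl3, Elovl6, Gnas and Pnpla2 was not tested, so these values are statements on the table rather than on the tissue.

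**Figure D3:**
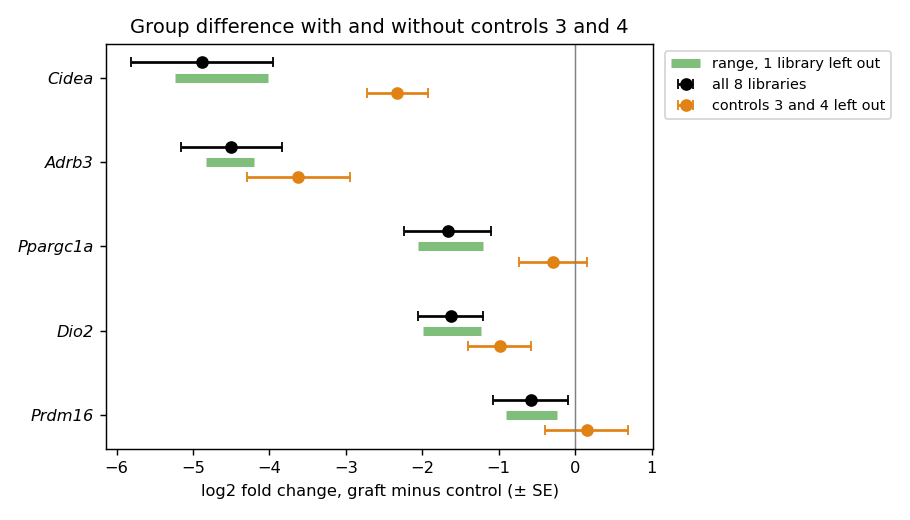
Log2 fold change, graft minus control, of the 5 tested members: black points with SE for all 8 libraries, orange points with SE for the fit with controls 3 and 4 left out, and a green bar for the range when 1 library is left out. Cidea and Adrb3 stay clear of 0 in each fit drawn, whereas Ppargc1a and Prdm16 lie within 1 SE of 0 once both controls are left out.

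The controls differed in adipocyte content, so the members were also read against adipocyte transcripts. Of 21 tested genes shared by white and brown adipocytes, 19 fell, 0 rose and 2 missed the threshold, where 21.3% of all genes tested fell. Their median log2 fold change was -3.61, against 0.01 for all genes tested. Among them Adipoq, Plin1, Cidec, Lep, Retn, Pck1 and Aqp7 were low in the grafts and passed the filter through the controls. Only a fall could be called for these. Adipoq, the adipocyte hormone adiponectin, stood at 1.76, 0, 0.320 and 1.09 CPM in grafts 1 to 4, and at 83.7, 154, 613 and 660 CPM in controls 1 to 4. Retn, the adipocyte hormone resistin, fell by 7.90 ± 0.66 log2 units (edgeR adjusted p = 3.83e-05). Lpl, a lipase that macrophages and muscle also make, stood at 372 CPM in grafts and 804 CPM in controls and did not pass (edgeR adjusted p = 0.0625). All 4 controls thus held adipocyte transcripts, and controls 3 and 4 held the most.

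Per 1000 counts of 7 adipocyte genes (Adipoq, Plin1, Cidec, Adig, Tusc5, Retn and Lep), the controls fell into different patterns for different members. Ucp1 had 0 per 1000 in controls 1 and 2, where 3 counts would be 0.970 and 0.822 per 1000, against 31.0 (95% exact binomial interval 28.0 to 34.3) in control 3 and 56.1 (50.7 to 61.8) in control 4. These 2 controls without Ucp1 held 3092 and 3649 adipocyte counts, against 12895 and 7561 in controls 3 and 4, so adipocyte transcripts were present where Ucp1 was not read. Cidea had 44.3, 23.3, 67.3 and 92.6 per 1000 in controls 1 to 4, again highest in the libraries with Ucp1. Ppargc1a, at 24.6, 23.8, 31.2 and 19.2 per 1000, and Adrb3, at 16.8, 28.5, 17.6 and 13.8, stayed within a narrower band and did not follow Ucp1. Dio2 ran the other way on this scale, with 53.0 and 32.1 per 1000 in controls 1 and 2 and 17.4 and 23.3 in controls 3 and 4. Its CPM did not, with 12.3 and 11.7 in controls 1 and 2 and 18.8 and 32.9 in controls 3 and 4. The grafts held 3.03 to 10.3 CPM of Dio2. The part of cells other than adipocytes in the values of Dio2 and the other members was not tested. Prdm16 was highest in control 2, at 62.8 per 1000, and lay between 25.8 and 28.0 in the others. Intervals cover counting error only, and no test was run between single controls.

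**Figure D4:**
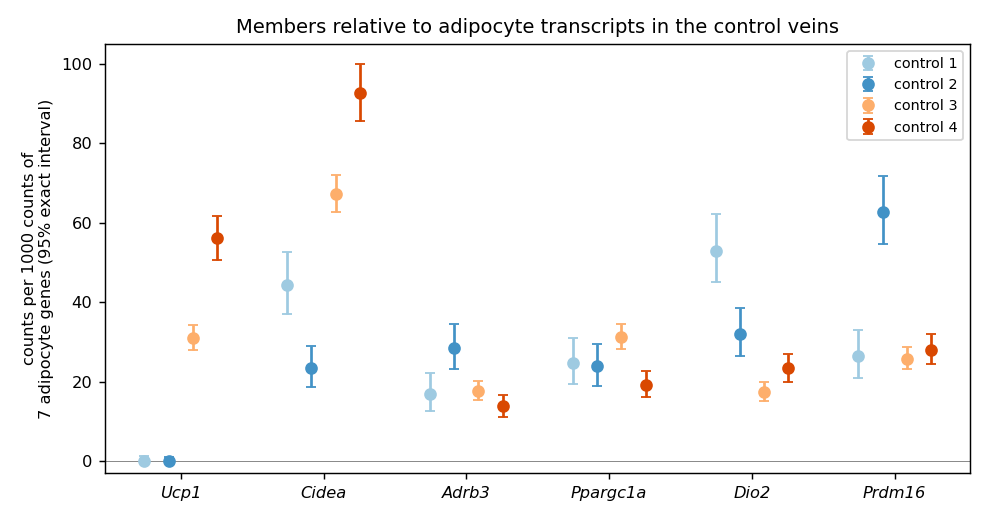
Counts of 6 members per 1000 counts of 7 adipocyte genes in each control vein, with 95% exact binomial intervals. Ucp1 is at 0 in controls 1 and 2 and at 31.0 and 56.1 in controls 3 and 4, while Adrb3 and Ppargc1a stay between 13.8 and 31.2 in all 4 controls.

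The same scale could not serve for the grafts. Their 7 adipocyte genes summed to 302, 140, 219 and 294 counts, of which Tusc5 alone made up 81.8%, 96.4%, 94.1% and 90.1%, against 10.2% to 23.4% in the controls. In a fit across all genes with these sums as library sizes, 98.4% of genes rose, and with them Ppargc1a, Dio2 and Prdm16. Cidea (log2 fold change 1.14 ± 0.81, edgeR adjusted p = 0.159) and Adrb3 (0.77 ± 0.86, edgeR adjusted p = 0.374) did not pass, so 0 of the 5 tested members fell on that scale, where 0.220% of all genes did. With the low-count filter removed, Ucp1 was called lower on that scale as well (edgeR adjusted p = 0.000524), where 0.188% of genes were called lower. With Tusc5 left out of the sum, a choice made after its share was seen, or with Plin1 alone, all 5 tested members rose, as did 99.7% of all genes on either scale.

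Of 27 other regulators of brown fat identity, 23 were tested, of which 9 fell, 2 rose and 12 missed the threshold. The share called in either direction, 47.8%, was near the 42.3% of all genes, and the median log2 fold change was -0.65. Falls outnumbered rises in this list, whereas 21.3% of all genes fell and 21.0% rose. With controls 3 and 4 left out, 7 of 23 tested fell and 1 rose, where 13.7% of 16445 genes fell. Ppara, a nuclear receptor for fatty acids that brown fat makes at high levels, stood at 2.67, 2.40, 2.40 and 2.89 CPM in grafts 1 to 4, and at 15.1, 15.5, 79.7 and 93.0 CPM in controls 1 to 4. It fell by 4.28 ± 0.65 log2 units (edgeR adjusted p = 0.000753), and its step between controls 1 and 2 and controls 3 and 4 resembled that of Cidea. Cebpb, a transcription factor of early adipogenesis and of inflammation, rose by 1.58 ± 0.36 (edgeR adjusted p = 0.00660). Genes named here after their values were seen are Nrg4, Ebf2, Lhx8 and Zic1. Nrg4, a secreted neuregulin of brown fat, averaged 0.507 CPM in grafts and 11.1 CPM in controls (edgeR adjusted p = 0.00173). Ebf2, a brown preadipocyte factor, averaged 22.5 CPM in grafts and 74.3 CPM in controls (edgeR adjusted p = 0.00121). Lhx8, a marker of classical brown fat in the mouse, averaged 13.2 ± 4.86 CPM in grafts and 13.0 ± 6.42 CPM in controls (SD, n = 4 each). Zic1, another such mouse marker, had 4 counts over the grafts and 0 over the controls, those with Ucp1 included.

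Of 33 other effector and marker genes of thermogenic fat, 32 were found and 23 tested. Of these, 9 fell, 2 rose and 12 missed the threshold (median log2 fold change -0.51). The share called in either direction was again 47.8%, near that of all genes. Falls again outnumbered rises, whereas 21.3% of all genes fell and 21.0% rose. With controls 3 and 4 left out, 7 of 26 tested fell and 5 rose (median -0.14), where 29.1% of all genes were called and 13.7% fell. Kcnk3, a potassium channel enriched in brown fat and also made by vascular smooth muscle, fell by 4.15 ± 0.37 log2 units (edgeR adjusted p = 4.61e-05). Its level was highest in control 1, at 40.0 CPM, and 13.6 CPM in control 3, so it did not follow Ucp1. Tmem26, a marker of beige fat in the mouse, rose by 2.12 ± 0.30 (edgeR adjusted p = 0.000523), with 7.92 to 21.3 CPM in the grafts and 2.80 to 3.68 CPM in the controls. In 19 of the 32 genes found, controls 3 and 4 both stood above controls 1 and 2. In 3 both stood below, and in 10 neither held. Of all genes tested, both stood above in 21.5%. Of the 27 other regulators, both stood above in 5 and below in 4, and in 18 neither held. Both lists include genes that did not pass the filter. The following genes were named after their values were seen. Slc36a2, an amino acid transporter of brown adipocytes, stood at 0.0607, 0, 1.12 and 0 CPM in grafts 1 to 4, and at 5.69, 8.17, 48.6 and 58.2 CPM in controls 1 to 4. Otop1, Cox8b and Plin5, which brown fat makes at high levels, did not pass the filter. Otop1 had 4 counts over the grafts, and 0, 0, 8 and 16 counts in controls 1 to 4. Cox8b, which muscle also makes, had 21 counts over the grafts, and 0, 0, 14 and 10 counts in controls 1 to 4. Plin5 had 3 counts over the grafts, and 5, 2, 48 and 36 counts in controls 1 to 4. Each of these 3 was highest in the controls with Ucp1, whereas Cited1, a marker of beige fat in the mouse, had 1.65, 1.89, 0.837 and 0.187 CPM in controls 1 to 4. Cpt1b, a carnitine palmitoyltransferase of brown fat and muscle mitochondria, lay between 3.61 and 5.89 CPM in the grafts. In controls 1 to 4 it had 3.82, 2.59, 43.3 and 64.2 CPM. Its call (edgeR adjusted p = 0.0494) was lost without any 1 graft, without control 3 and without control 4 (0.0942 to 0.152), and also with a replicate block (0.209), with library totals (0.0648) or upper-quartile factors (0.0536) and by limma voom (0.408).

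**Figure D5:**
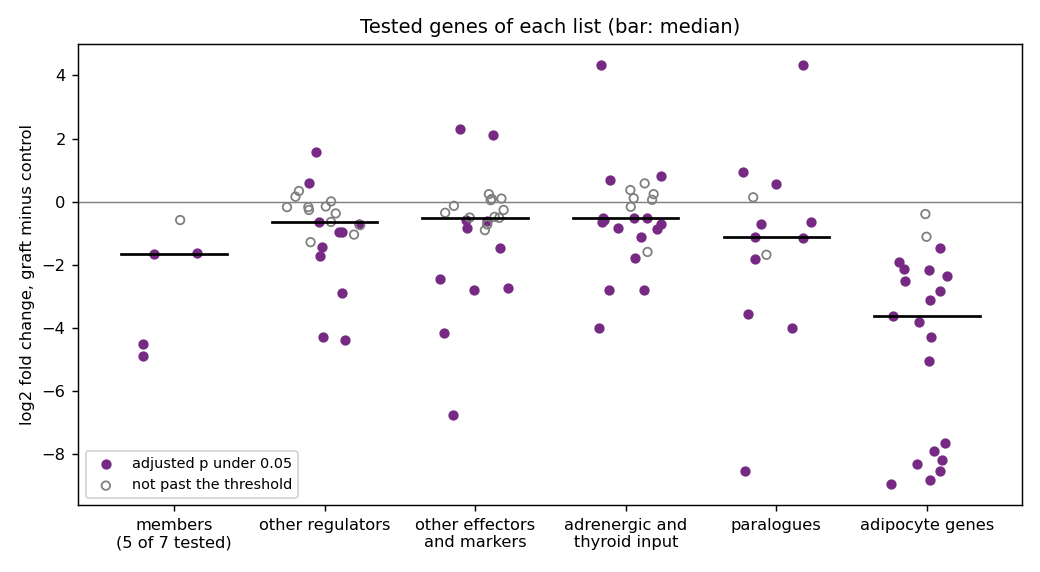
Log2 fold change, graft minus control, of the tested genes of each list, with filled points past an edgeR adjusted p of 0.05, open points not past it and a bar at the median. The adipocyte genes have the lowest median, -3.61, while those of the regulator and effector lists are -0.65 and -0.51.

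Of 29 genes for adrenergic and thyroid hormone input, 23 were tested. Of these, 13 fell, 3 rose and 7 missed the threshold (median log2 fold change -0.51). The share called was 69.6%, against 42.3% of all genes tested, of which 21.3% fell and 21.0% rose. Gnai1, an inhibitory G protein subunit, fell by 2.80 ± 0.33 log2 units (edgeR adjusted p = 0.000179), with 10.6 to 17.3 CPM in the grafts and 41.9 to 122 CPM in the controls. Rxra, the partner of thyroid hormone and fatty acid receptors, rose by 0.82 ± 0.12 (edgeR adjusted p = 0.000755). Th, the first enzyme of noradrenaline synthesis, had 10 counts over the grafts and 0 over the controls. Of 8 sympathetic neuron genes, Dbh, Phox2a and Chrna3 had no counts at all, and 0 of the 2 tested passed by edgeR, although 1 did by DESeq2 and 1 had an unadjusted edgeR p under 0.05. That gene, the monoamine transporter Slc18a2, stood at 18.2, 1.13, 27.8 and 2.82 CPM in grafts 1 to 4 and at 1.59 to 3.75 CPM in the controls (unadjusted p = 0.0411 and adjusted p = 0.0841 by edgeR).

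Relatives of the members differed in direction from one another. Of 17 paralogues, 13 were tested, of which 8 fell, 3 rose and 2 did not pass. That was 84.6% called, against 42.3% of all genes tested, of which 21.3% fell and 21.0% rose. Ucp2, an uncoupling protein relative that macrophages make, rose by 0.94 ± 0.20 log2 units (edgeR adjusted p = 0.00445), with 135 to 238 CPM in the grafts and 72.8 to 116 CPM in the controls. Ucp3, the muscle and brown fat form, stood at 2.00, 0, 1.20 and 2.44 CPM in grafts 1 to 4, and at 0.0749, 0.498, 5.10 and 13.6 CPM in controls 1 to 4, and did not pass (edgeR adjusted p = 0.300). Its highest levels were in the controls with Ucp1, and among grafts it had no counts only in graft 2, the graft with the lowest muscle sum (64.9 CPM). Cidec, the lipid droplet protein of white fat related to Cidea, fell by 8.53 ± 0.83 (edgeR adjusted p = 7.06e-05).

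Adrb1, which encodes the beta-1 adrenergic receptor, was lower in every graft than in any control. It stood at 0.249 ± 0.224 CPM in grafts and 4.23 ± 1.56 CPM in controls (SD, n = 4 each), a log2 fold change of -3.99 ± 0.55 (edgeR adjusted p = 0.000476). Dio3, the deiodinase that inactivates thyroid hormone, rose by 4.33 ± 0.91 (edgeR adjusted p = 0.00442), with 24, 23, 46 and 62 counts in grafts 1 to 4 and 0, 5, 0 and 0 counts in controls 1 to 4. Its fitted value rests on control 2 and was 8.10 without that library, where all controls were at 0 and the fit gives no bound. It moved opposite to Dio2, and the liver and kidney form Dio1 had 3 counts over the grafts and 7 over the controls. Ppargc1b fell by 0.71 ± 0.13 (edgeR adjusted p = 0.00246), with 12.9 to 15.9 CPM in the grafts and 22.1 to 25.8 CPM in the controls, without the step that Ppargc1a showed among controls. Pprc1, the remaining PGC-1 relative, stood at 58.6 CPM in grafts and 39.6 CPM in controls (edgeR adjusted p = 0.0401), a call lost without graft 1, 2 or 3 or control 2, 3 or 4, without both controls 3 and 4 (0.241) and with a replicate block (0.0596). Mecom, the relative of Prdm16, fell by 0.65 ± 0.15 (edgeR adjusted p = 0.00725), a call lost with controls 3 and 4 left out (0.0591). Among the elongases related to Elovl3, Elovl7 fell by 3.56 log2 units (edgeR adjusted p = 0.000177), Elovl4 fell by 1.80 (0.00277) and Elovl5 fell by 1.15 (0.00110). Elovl1 had a log2 fold change of 0.14 (edgeR adjusted p = 0.401).

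The genes whose profiles over the 8 libraries were most like each tested member were found by the root mean square difference of centred log2 CPM. For Cidea these were MGC109340 (0.50) and Ppara (0.53). For Adrb3 they were Mcpt1l1 (0.37), named as a mast cell protease, and Gpm6a (0.39), a membrane glycoprotein. For Dio2 they were Sorl1 (0.19) and Pla2g16 (0.26), a phospholipase of adipocytes, and for Ppargc1a Rgs7 (0.31) and Fam13a (0.34). For Prdm16 they were ATP6 (0.18) and ATP8 (0.19), subunits of ATP synthase encoded by mitochondrial DNA. ATP6 stood at 1755, 2127, 1293 and 997 CPM in grafts 1 to 4, and at 615, 1969, 3114 and 4313 CPM in controls 1 to 4. Both ATP6 and Prdm16 were lowest in control 1 and highest in control 4. The likeness is a description of 8 libraries that share their depth and group differences.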

How the data were processed

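The authors' deposited table holds whole-number counts per gene for 8 libraries, with no further normalization in the values. The submitters' processing notes name HISAT2 2.0.4 and the build Rnor_6.0. How reads were counted, on which annotation and whether by strand is not given in the sources used here, so reads of overlapping or antisense genes cannot be told apart. Groups come from the sample titles. The design speaks of 4 pairs, but source names number grafts and controls differently and no label ties a control to a graft, so the test is unpaired. The members and lists were chosen with earlier results of these data known, and no pattern among them is independent support.

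The tests used edgeR 4.0.16 under R 4.3.3, where filterByExpr (minimum count 10) kept 15464 genes, and TMM factors ran from 1.03 to 1.19 in the grafts and 0.90 to 0.96 in the controls. A gene could pass this filter on the counts of either group alone, as Adrb1, Adrb3, Cidec and Dio3 did. Graft and control were compared by glmQLFit with glmQLFTest, and each SE was derived from the fold change and its F statistic. log2 CPM profiles used a prior count of 2. Exact permutation tests enumerated all 70 splits. Alternatives were library totals, upper-quartile factors, DESeq2 1.42.0, voom of limma 3.58.1, no filter, a replicate block, thinned counts and libraries left out. Named from each list was the gene with the smallest p in each direction, for lists of other cell types also the most abundant gene, and for each tested member the 2 nearest profiles. All paralogues could be named. List members were found by current or older symbols, as Tusc5 for Trarg1. Cox7a1 was not analysed here.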

Additional observations from a re-analysis of the deposited data

How the results depend on the processing

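Cidea and Adrb3 fell past the threshold under every alternative run other than the adipocyte scale, and Dio2 under every one of these except controls 3 and 4 left out (log2 fold change -0.99). In that fit 2 of 5 tested members fell (3 at an unadjusted p under 0.05), where 13.7% of 16445 genes did, Ppargc1a stood at -0.29, and the signs of Prdm16 (0.15), Cpt1b (0.68) and Ucp3 (2.37) turned. With a replicate block (-1.49), library totals (-1.47), limma voom (-1.29) or thinned counts (-1.57), Ppargc1a did not pass. Ucp1 could be tested with no low-count filter alone, where it was called (1, against 0) at a fitted log2 fold change of -11.38 that is no bound. Elovl3 could not be fitted under any. With 1 library left out, the members called numbered 3 to 5, and the log2 fold changes ran from -2.05 to -1.21 for Ppargc1a and from -0.91 to -0.24 for Prdm16. Library totals alone gave 4558 genes that rose and 2164 that fell (67.8% that rose, against 49.7% with TMM), and moved the median of all genes from 0.01 to 0.23. On the adipocyte scale the members called numbered 3 (all rose), and 4 with no low-count filter (3 rose and Ucp1 fell). They numbered 4 with controls 3 and 4 left out (all rose), and 5 with Plin1 alone or with Tusc5 left out. That scale could not serve for the grafts, so its Ucp1 call cannot show a fall per adipocyte transcript. Adipoq alone gave no value, since graft 2 has no Adipoq counts. Skeletal muscle calls numbered 1, 2 with DESeq2, 0 with limma voom, 5 with controls 3 and 4 left out and 0 to 2 with 1 library left out. Sympathetic calls numbered 0, 1 with the replicate block (a fall), 1 with DESeq2 (a rise) and 0 to 1 with 1 library left out (a fall without graft 1, a rise without graft 2 or 4). The causes were not tested. Same-numbered grafts and controls did not deviate together (correlations of -0.075, 0.180, 0.071 and 0.051 over genes), and not every library correlated best with its own number, so the numbers were not taken as pairs. The replicate block called 5902 genes against 6538 without it. Control 4, with the fewest counts, limits statements on rare transcripts.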
